A study of Ovis aries with 15 samples.

Results

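Heat shock proteins and their partner chaperones were represented on the ovine array by 5 probes under 3 gene names, out of 15008 probes without controls. Members were all probes whose name on the array begins with HSP or DNAJ. They are HSP70.1 (2 probes), the older name of HSPA1A, HSPA5 (2 probes) and HSP90AA1 (1 probe). No name on the array begins with DNAJ (0 probes). Only 8% of the probes could be given a RefSeq gene symbol from their name or accession (1200 probes, 754 symbols), so family members known on the array by sequence record alone are not counted here. All 5 probes were well above background on all 15 arrays by the scanner's own call, and none was saturated or flagged as an outlier on any array.

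Heat shock proteins are molecular chaperones that bind unfolded proteins, keep them from aggregating and release them for refolding with the use of ATP. Cytosolic HSP70 and HSP90 are the classical targets of heat shock factor 1 and rise when proteins are damaged by heat, low oxygen or toxins. HSPA5, also called BiP or GRP78, does the same work in the endoplasmic reticulum and is the best known target of the unfolded protein response. In the kidney, inducible HSP70 is known as a protein that tubule cells make after ischaemia.

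The RNA came from the kidney cortex of 15 sheep fetuses at 125 ± 3 days of gestation, each carrying implanted catheters, with 1 fetus per array. Hypoxia ketamine fetuses (n = 4) received 3 mg/kg ketamine, an NMDA receptor blocker used as an anaesthetic, into the fetal circulation 10 min before 30 min of hypoxia, which was brought about through the ewe's breathing gas. Hypoxia vehicle fetuses (n = 4) received saline and the same 30 min of hypoxia, normoxia ketamine fetuses (n = 4) received 3 mg/kg ketamine and 30 min of normoxia, and normoxia vehicle fetuses (n = 3) received saline and normoxia. All cortices were taken 24 h after the onset, so the values below describe the state at that single time and not the hours directly after hypoxia.

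The probe sequences, as the scanner files give them, are shown because they decide which of the measurements are independent of each other. The HSP70.1 probes are the same stretch of sequence shifted by 2 bases, and the 58 bases that they share are in capitals:
HSP70.1 A_70_P031192: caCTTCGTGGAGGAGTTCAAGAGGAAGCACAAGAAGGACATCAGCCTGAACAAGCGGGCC
HSP70.1 A_70_P031191: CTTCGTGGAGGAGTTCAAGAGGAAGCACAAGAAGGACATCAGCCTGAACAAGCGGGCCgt
They therefore read nearly the same target and count as 1 measurement made with 2 spots. The HSPA5 probes lie next to each other in their sequence record, with starts 60 bases apart and no overlap, and HSP90AA1 has its single probe:
HSPA5 A_70_P016526: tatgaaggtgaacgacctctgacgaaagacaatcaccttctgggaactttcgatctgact
HSPA5 A_70_P016527: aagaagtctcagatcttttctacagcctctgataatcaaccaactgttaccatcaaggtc
HSP90AA1 A_70_P014626: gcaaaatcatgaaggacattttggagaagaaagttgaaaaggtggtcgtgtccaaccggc
Every probe is 60 bases long. The longest run of bases shared between probes of different genes was 9 bases. Other HSP70 genes of the sheep have coding sequences close to that of HSPA1A, and how much of the HSP70.1 signal came from them was not tested.

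Values are log2 of the scanner's processed intensity minus log2 of the 75th percentile of that array, so 0 stands for a spot as bright as the 75th percentile and 1 for a spot with 2 times that brightness. The 75th percentile itself lay between 1071 and 1456 intensity units. The share of probes well above background was 75.61% on the array of hypoxia ketamine replicate 4 and between 80.98% and 85.22% on the other arrays. Hypoxia vehicle replicate 4 and hypoxia ketamine replicate 2 had the lowest median correlations to the other arrays, 0.951 and 0.965. Hypoxia vehicle replicates 3 and 1 were close to the second of these, at 0.968 and 0.971, and the other arrays lay at 0.977 or above. The arrays sat on 2 slides, each scanned once, with 8 arrays on slide 1 and 7 on slide 2, and each slide held all 4 groups.

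Markers of the cortex were present: the summed signal of 5 proximal tubule genes found on the array (of 12 listed) was 58.8 to 87 times the 75th percentile in hypoxia ketamine, 46.1 to 92.7 in hypoxia vehicle, 63.2 to 72.2 in normoxia ketamine and 58 to 79.5 in normoxia vehicle cortices. Of 11 leukocyte markers listed, 8 were on the array and 7 were detected, with CD4 above background on 0 arrays. Their summed signal was 2.57 to 6.86 in hypoxia ketamine and 2.51 to 7.65 in hypoxia vehicle cortices, against 1.75 to 2.24 in normoxia ketamine and 1.93 to 2.04 in normoxia vehicle cortices. Fewer cells of a type and less RNA per cell cannot be told apart in such bulk RNA.

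HSP70.1, the stress-inducible cytosolic HSP70, was the member with the clearest difference. By the unadjusted test it was lower after hypoxia with ketamine than after hypoxia with vehicle. On probe A_70_P031191 the hypoxia ketamine cortices read 1.80, 1.83, 2.10 and 2.03 (log2, replicates 1 to 4), against 3.03, 1.88, 2.69 and 3.07 in hypoxia vehicle cortices. The other HSP70.1 probe, A_70_P031192, read 1.84, 1.85, 2.06 and 2.11 in hypoxia ketamine cortices, against 2.95, 1.88, 2.72 and 3.05 in hypoxia vehicle cortices. All 4 hypoxia ketamine cortices were low and close together, while 3 of the 4 hypoxia vehicle cortices were high and replicate 2 of that group lay among the ketamine values, so the groups overlapped (2.02% of all probes compared did not overlap there). The normoxia group means lay between those of the hypoxia groups: A_70_P031191 read 2.40, 1.90, 2.27 and 2.40 in normoxia ketamine and 2.47, 2.13 and 2.10 in normoxia vehicle cortices, and A_70_P031192 read 2.44, 1.97, 2.28 and 2.50 in normoxia ketamine and 2.52, 2.18 and 2.29 in normoxia vehicle cortices.

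Group means of A_70_P031191 were 1.94 ± 0.15 in hypoxia ketamine, 2.67 ± 0.55 in hypoxia vehicle and 2.24 ± 0.24 in normoxia ketamine (SD, n = 4 each), and 2.23 ± 0.20 in normoxia vehicle cortices (SD, n = 3). The order of the means was thus hypoxia vehicle, then the normoxia groups, which were within 0.01 of each other, then hypoxia ketamine. The spread of this probe was at percentile 80.2 of all tested probes in hypoxia vehicle cortices and at percentile 24.6 in hypoxia ketamine cortices. A_70_P031192 had means of 1.97 ± 0.14, 2.65 ± 0.53 and 2.30 ± 0.24 in the same 3 groups (SD, n = 4 each) and 2.33 ± 0.17 in normoxia vehicle cortices (SD, n = 3).

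**Figure D1:**
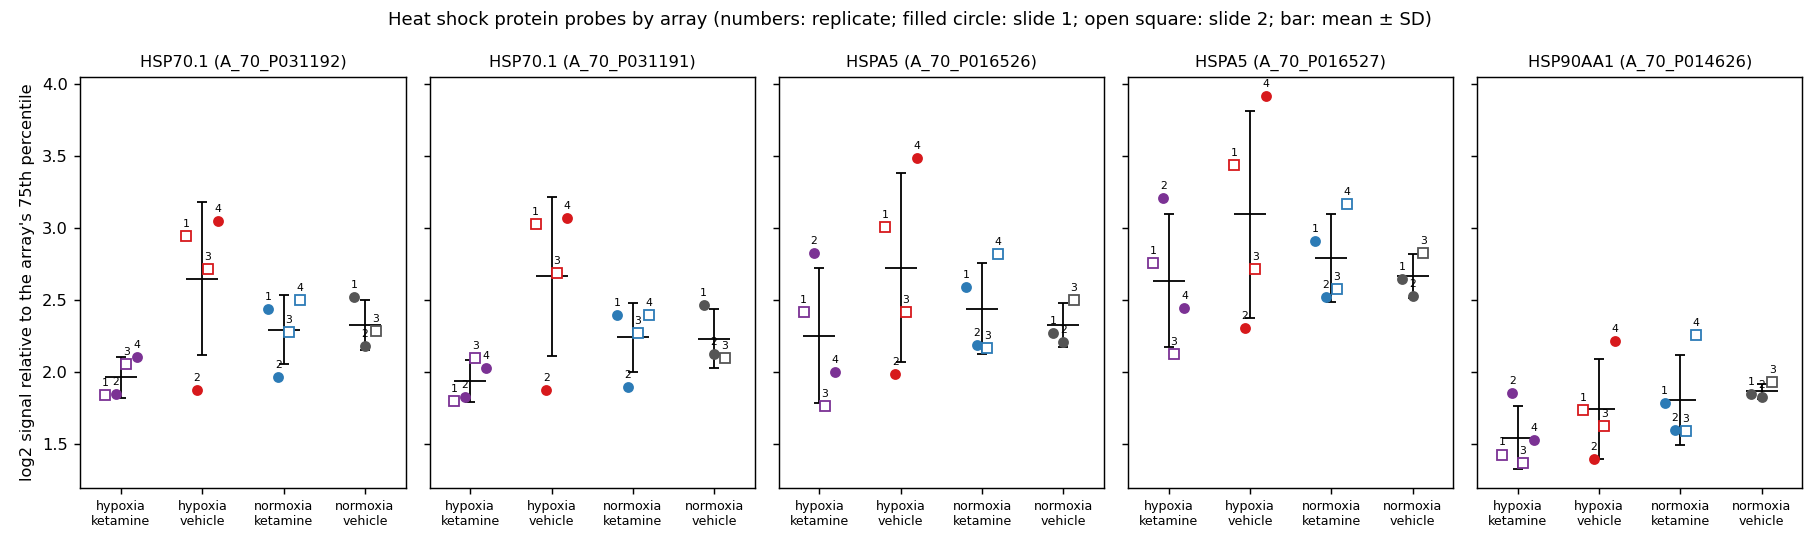
Each panel shows 1 probe, with the log2 signal relative to the array's 75th percentile on the vertical axis and the 4 groups along the horizontal axis. Points are arrays numbered by replicate (filled circles for slide 1, open squares for slide 2), and bars give the mean ± SD. In both HSP70.1 panels the 4 hypoxia ketamine points lie between 1.80 and 2.11, and 3 hypoxia vehicle points lie at 2.69 or above.

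The test of ketamine against vehicle after hypoxia asked whether the drug given beforehand changed what hypoxia left in the cortex. HSP70.1 fell by 0.73 ± 0.23 on the log2 scale on A_70_P031191 (SE, a ratio of 0.604, 95% interval -1.21 to -0.24, unadjusted p = 0.006483 in limma) and by 0.69 ± 0.22 on A_70_P031192 (a ratio of 0.622, 95% interval -1.15 to -0.22, unadjusted p = 0.00742 in limma). These 2 of 5 member probes passed the unadjusted threshold of 0.05 that the labels give, both downward. Of the 12927 tested probes, 6.03% passed it and 3.66% passed it downward. The 2 HSP70.1 probes share 58 bases and count as 1 measurement, so the calls concern 1 of the 3 member genes. After Benjamini-Hochberg adjustment over all tested probes both had an adjusted p = 0.787 in limma, and none of the 12927 probes passed (0 probes, 0%). The exact two-sided permutation test of the 8 arrays gave p = 0.0857 for each HSP70.1 probe, where 0.0286 is the smallest value it can give.

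Leaving out any 1 of the 15 arrays did not end the HSP70.1 call: with each left out in turn, both probes kept an unadjusted p of at most 0.0274, and the fall ran from -0.59 to -0.99 on A_70_P031191. Without hypoxia vehicle replicate 2 the fall was the largest, -0.99 on A_70_P031191 (unadjusted p = 3.774e-05 in limma) and -0.94 on A_70_P031192 (unadjusted p = 3.499e-05). The adjusted p of both was then 0.06098 in limma, and 11.9% of all tested probes passed the unadjusted threshold. That array had a median correlation of 0.977 to the other arrays, against 0.971, 0.968 and 0.951 for hypoxia vehicle replicates 1, 3 and 4, which were high in HSP70.1. The difference on A_70_P031191 was -0.55 within slide 1 (unadjusted p = 0.2245) and -0.91 within slide 2 (unadjusted p = 0.005662). Without the 2 arrays of lowest correlation, a choice made after seeing the data, it was -0.56 (unadjusted p = 0.05057). The leukocyte marker sum was 3.04, 6.86, 2.57 and 3 in the hypoxia ketamine cortices and 2.51, 3.82, 7.65 and 3.84 in the hypoxia vehicle cortices; its part in the HSP70.1 difference was not tested.

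In the other comparisons between groups HSP70.1 passed no threshold. Between hypoxia and normoxia with vehicle, A_70_P031191 differed by 0.44 ± 0.24 (95% interval -0.09 to 0.96, unadjusted p = 0.09676 in limma) and A_70_P031192 by 0.32 ± 0.24 (unadjusted p = 0.1985). The value depended on hypoxia vehicle replicate 2. Without it the differences were 0.70 (unadjusted p = 0.001342 and adjusted p = 0.08954 in limma) and 0.57 (unadjusted p = 0.003574 and adjusted p = 0.1036). HSPA5 probe A_70_P016527 then passed too (0.69, unadjusted p = 0.04714). Of all tested probes 18.9% passed the unadjusted threshold without that array, against 16% with it. Between hypoxia and normoxia with ketamine the sign was the opposite, -0.30 ± 0.23 on A_70_P031191 (unadjusted p = 0.2053) and -0.33 ± 0.22 on A_70_P031192 (unadjusted p = 0.1494, and unadjusted p = 0.0328 without hypoxia vehicle replicate 2, which lies outside that comparison but enters the shared estimate of the spread). Ketamine against vehicle in normoxia gave 0.01 ± 0.24 on A_70_P031191 (95% interval -0.52 to 0.53, unadjusted p = 0.9707) and -0.03 ± 0.24 on A_70_P031192, so the interval still allows a change of up to 0.53 in size on the log2 scale.

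Whether the hypoxia effect on HSP70.1 differed between the ketamine and vehicle arms was tested as an interaction. The hypoxia effect with ketamine minus that with vehicle was -0.74 ± 0.33 on A_70_P031191 (95% interval -1.45 to -0.02, unadjusted p = 0.04466 and adjusted p = 0.9918 in limma) and -0.65 ± 0.32 on A_70_P031192 (95% interval -1.34 to 0.04, unadjusted p = 0.06249). Thus 1 of 5 member probes passed, where 3.09% of all tested probes did and 1.18% did so with a negative sign. The call on A_70_P031191 was at the edge: leaving out any of 11 of the 15 arrays ended it (values from -0.60 to -0.77, p up to 0.09343). The 4 arrays that did not end it were normoxia vehicle replicate 1, normoxia ketamine replicate 2, hypoxia ketamine replicate 3 and hypoxia vehicle replicate 2. Without the last of these the value was the largest (-0.9989, unadjusted p = 0.0007328 and adjusted p = 0.8796 in limma). Within slide 1 it was -0.40 (unadjusted p = 0.5158), and within slide 2 it was -1.14 (unadjusted p = 0.01425). The call was also lost with slide as a block (-0.716, unadjusted p = 0.05575), with quantile scaling (-0.668, unadjusted p = 0.06627) and in the deposited table (-0.648, unadjusted p = 0.07429).

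HSPA5, the chaperone of the endoplasmic reticulum, varied more between fetuses of a group than HSP70.1 did in hypoxia ketamine cortices, and no comparison passed the threshold. On A_70_P016527, hypoxia ketamine cortices read 2.76, 3.21, 2.13 and 2.45, against 3.44, 2.31, 2.72 and 3.92 in hypoxia vehicle cortices. Normoxia ketamine cortices read 2.91, 2.52, 2.58 and 3.17, against 2.65, 2.53 and 2.83 in normoxia vehicle cortices. The highest values were those of hypoxia vehicle replicates 4 and 1, and the lowest that of hypoxia ketamine replicate 3; in each pair of groups the values overlapped. On A_70_P016526 the lowest and highest values were 1.77 and 2.83 in hypoxia ketamine, 1.99 and 3.49 in hypoxia vehicle, 2.17 and 2.82 in normoxia ketamine, and 2.21 and 2.50 in normoxia vehicle cortices.

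The group means of HSPA5 on A_70_P016527 were 2.64 ± 0.46 in hypoxia ketamine, 3.10 ± 0.72 in hypoxia vehicle and 2.80 ± 0.30 in normoxia ketamine (SD, n = 4 each), and 2.67 ± 0.15 in normoxia vehicle cortices (SD, n = 3). Its spread stood at percentiles 80.2, 87.3, 71.9 and 41.3 of all tested probes in that order of groups. The difference of ketamine from vehicle after hypoxia was -0.47 ± 0.30 on A_70_P016526 (95% interval -1.12 to 0.18, unadjusted p = 0.1432 in limma) and -0.46 ± 0.31 on A_70_P016527 (95% interval -1.14 to 0.22, unadjusted p = 0.1666). Without hypoxia vehicle replicate 2 both passed the unadjusted threshold in limma, at -0.72 (unadjusted p = 0.02618) and -0.72 (unadjusted p = 0.02881). That takes the count of member probes called in that comparison to 4 of 5. The share of all tested probes called in it also went up, to 11.9% without that array from 6.03% with it.

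Hypoxia minus normoxia for HSPA5 was 0.40 ± 0.33 (unadjusted p = 0.244) and 0.43 ± 0.34 (unadjusted p = 0.2313) with vehicle, and -0.18 ± 0.30 (unadjusted p = 0.5532) and -0.16 ± 0.31 (unadjusted p = 0.6256) with ketamine, for A_70_P016526 and A_70_P016527 in that order; the intervals with vehicle reach from -0.31 to 1.10 and from -0.31 to 1.16. Its interaction was -0.58 ± 0.44 (unadjusted p = 0.2131) and -0.58 ± 0.46 (unadjusted p = 0.2294). A change of the size seen for HSP70.1 lies inside the HSPA5 intervals for ketamine against vehicle after hypoxia.

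HSP90AA1, the inducible form of cytosolic HSP90, which holds kinases and steroid receptors in an activatable shape, had the narrowest range of the 3 genes over all 15 arrays, though not within every group. Hypoxia ketamine cortices read 1.43, 1.86, 1.37 and 1.53, and hypoxia vehicle cortices read 1.74, 1.40, 1.63 and 2.22. Normoxia ketamine cortices read 1.79, 1.60, 1.59 and 2.26, and normoxia vehicle cortices read 1.85, 1.83 and 1.93. The normoxia vehicle fetuses were nearly equal, at percentile 7.25 of the spread of all tested probes. In each of the other groups 3 of the 4 values lay below them. The exceptions were hypoxia ketamine replicate 2 at 1.86, hypoxia vehicle replicate 4 at 2.22 and normoxia ketamine replicate 4 at 2.26.

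Means of HSP90AA1 were 1.55 ± 0.22 in hypoxia ketamine, 1.75 ± 0.34 in hypoxia vehicle and 1.81 ± 0.31 in normoxia ketamine (SD, n = 4 each), and 1.87 ± 0.05 in normoxia vehicle cortices (SD, n = 3). No comparison passed the unadjusted threshold in limma: ketamine against vehicle after hypoxia gave -0.20 ± 0.19 (95% interval -0.60 to 0.20, unadjusted p = 0.3008), and hypoxia against normoxia gave -0.12 ± 0.20 with vehicle (95% interval -0.56 to 0.31, unadjusted p = 0.5553) and -0.26 ± 0.19 with ketamine (95% interval -0.67 to 0.14, unadjusted p = 0.1787). Averaged over both drug arms the hypoxia effect was -0.19 ± 0.14 (unadjusted p = 0.1819). It passed without hypoxia vehicle replicate 4 (-0.27, unadjusted p = 0.04351) and without the 2 arrays of lowest correlation (-0.32, unadjusted p = 0.01617).

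**Figure D2:**
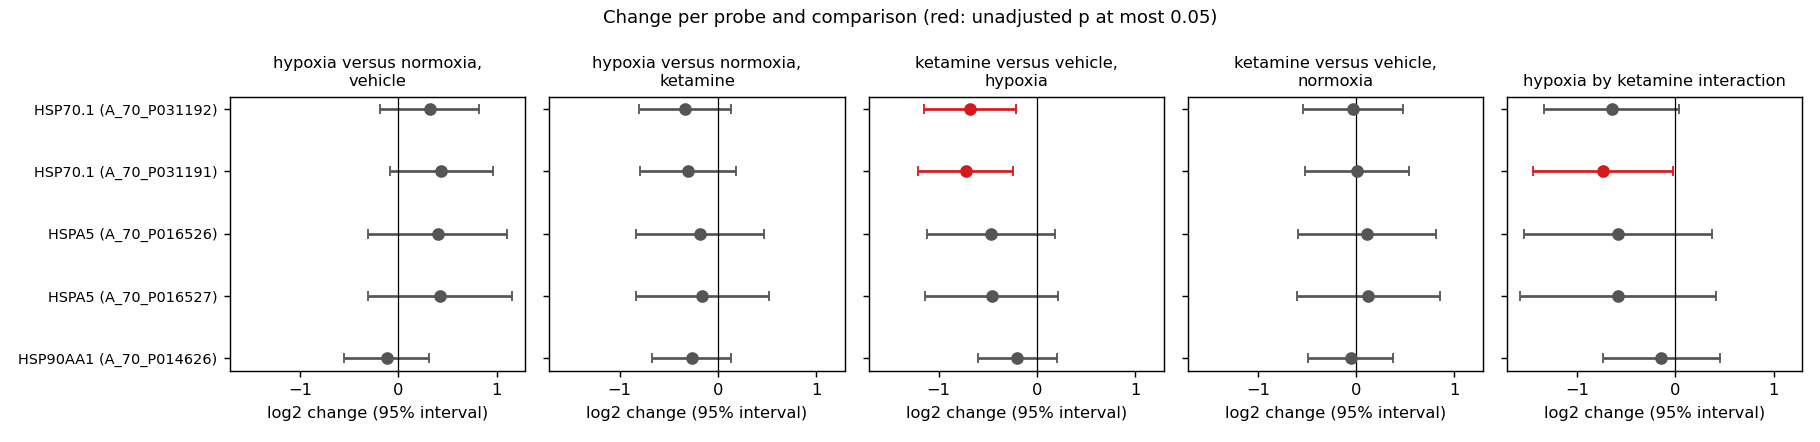
Each panel is 1 comparison, with the log2 change on the horizontal axis and the 5 probes down the page. Points are limma estimates, bars are 95% intervals, and red marks an unadjusted p of at most 0.05. The HSP70.1 probes are red at -0.69 and -0.73 for ketamine against vehicle after hypoxia, and 1 of them is red at -0.74 in the interaction.

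Over the 5 probes as a list, 0 passed the unadjusted threshold for hypoxia against normoxia with vehicle, where 16% of all tested probes did and 0.0155% passed with adjustment. For hypoxia against normoxia with ketamine the count was 0 against 8.7% of all probes, for ketamine against vehicle in normoxia 0 against 2.71%, and for the mean hypoxia effect over both arms 0 against 20.3%, with 1.63% passing after adjustment. With adjustment over all tested probes in limma, 0 member probes passed in any of the 6 comparisons. The median change of the member probes was 0.40 for hypoxia against normoxia with vehicle, -0.26 for the same with ketamine, -0.47 for ketamine against vehicle after hypoxia, 0.01 for ketamine against vehicle in normoxia and -0.58 for the interaction. The medians over all tested probes in those comparisons were -0.05, -0.03, 0.01, -0.01 and 0.02. With signs dropped, the median change over all tested probes was 0.22, 0.15, 0.15, 0.13 and 0.19 in that order. The comparisons share groups, and 4 of the 5 probes form pairs on the same gene, so the medians of the member probes describe the list and are not separate pieces of evidence.

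The 3 genes were then set against each other over the 15 arrays, with the probes of a gene averaged. HSPA5 and HSP90AA1 were correlated: Pearson's r was 0.765 (permutation p = 0.00102, and, over the 3 pairs, adjusted p = 0.00306) and Spearman's rho was 0.743 (permutation p = 0.00206, adjusted p = 0.00618). The value was 0.771 without the 2 arrays farthest from the HSPA5 median, which were hypoxia vehicle replicates 4 and 1, and it was 0.890 over the 8 arrays of slide 1 and 0.663 over the 7 arrays of slide 2. With group means taken off, r was 0.882 (permutation p = 0.00023, adjusted p = 0.00069). Only 0.506% of all tested probes had a higher within-group r to HSPA5 than HSP90AA1 had. Fetuses high in the endoplasmic reticulum chaperone thus tended to be high in the cytosolic HSP90 within their group as well.

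The r values of HSP70.1 with the others were lower, and the difference between the correlations was not tested. Its r with HSPA5 was 0.662 (permutation p = 0.00661, adjusted p = 0.009915), but rho was 0.493 (permutation p = 0.0648) and r dropped to 0.221 without hypoxia vehicle replicates 4 and 1 and to 0.123 over the 11 arrays of the other 3 groups. That relation therefore rests on those 2 cortices, which were high in both genes. HSP70.1 with HSP90AA1 gave r = 0.546 (permutation p = 0.03494) and rho = 0.507 (permutation p = 0.05657, adjusted p = 0.0648), 0.456 without the same 2 arrays, and 0.795 and 0.362 within slides 1 and 2. With group means taken off, the r values of HSP70.1 were 0.594 with HSPA5 (permutation p = 0.1072) and 0.568 with HSP90AA1 (permutation p = 0.108).

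**Figure D3:**
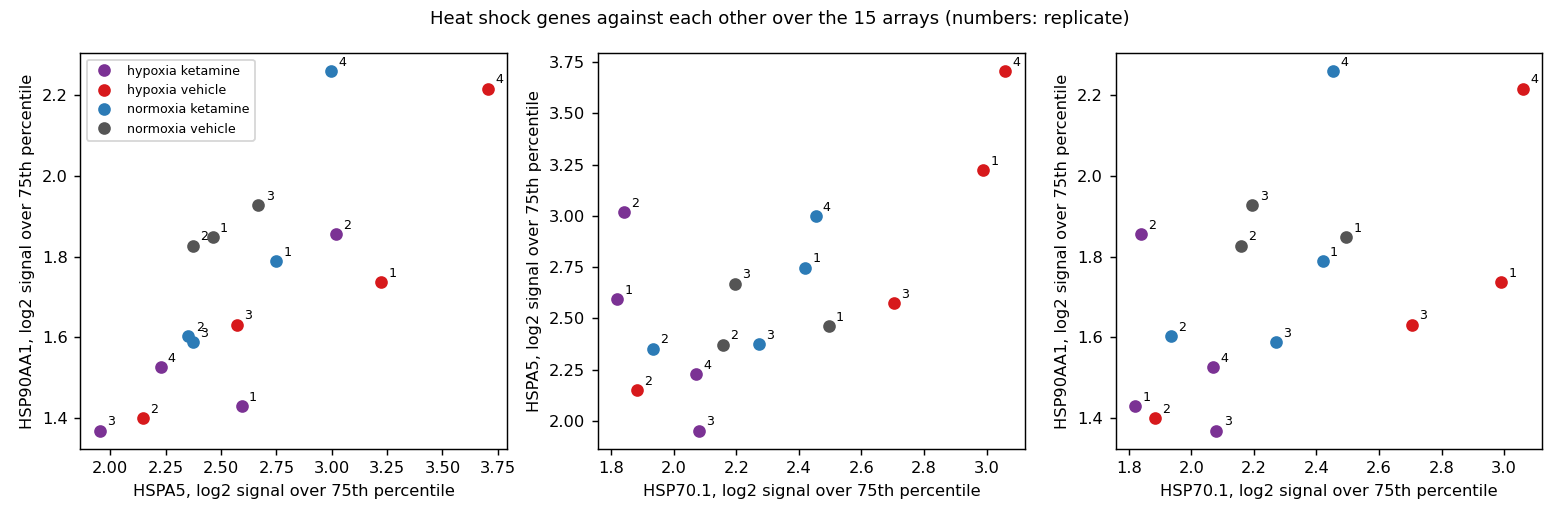
Each panel plots the log2 signal of 1 gene against another over the 15 arrays, coloured by group and numbered by replicate. HSPA5 and HSP90AA1 increase together over all groups (r = 0.765), while hypoxia vehicle replicates 1 and 4 lie at the upper right in the panel of HSP70.1 and HSPA5.

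The wider network was read from a list of 72 genes for co-chaperones, chaperonin, folding enzymes, small heat shock proteins and stress regulators, of which 13 genes were on the array with 22 probes, all tested. With vehicle, 3 of the 22 probes were higher after hypoxia and 0 lower, against 5.88% of all tested probes higher and 10.1% lower, and the list's median change was 0.05. With ketamine, 0 probes were higher and 1 lower, against 3.54% and 5.17% of all tested probes. The mean over both arms called 3 higher and 1 lower, against 7.79% and 12.5%; they were probes of ATF4, BAG6 (0.17), DDIT3 (0.30) and ERP29 (-0.24). Of these mean effects, that of ATF4 kept its call with each array left out, while BAG6 lost it with any of 10 of the 15 arrays left out, DDIT3 with any of 8 and ERP29 with 1. ATF4 did lose it within slide 2 (0.37, unadjusted p = 0.2112 in limma). BAG6 also lost it with the replicate block (0.17, unadjusted p = 0.05332). DDIT3 gave 0.16 with normexp background correction (unadjusted p = 0.3275) and 0.08 within slide 1 (unadjusted p = 0.6449). ERP29 gave -0.04 within slide 2 (unadjusted p = 0.7551). Ketamine against vehicle called 0 of the 22 probes after hypoxia (median -0.09) and 1 probe, lower, in normoxia, where 1.73% of all tested probes were lower. The interaction called 0, and with adjustment over all tested probes 0 of the 22 passed in any comparison in limma.

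ATF4, the transcription factor that carries the integrated stress response, was the network gene with the largest called change. It read 1.06, 0.95, 0.77 and 0.94 in hypoxia ketamine and 1.58, 0.95, 0.79 and 1.84 in hypoxia vehicle cortices, against 0.72, 0.34, 0.51 and 0.96 in normoxia ketamine and 0.72, 0.32 and 0.63 in normoxia vehicle cortices. With vehicle, all 4 hypoxia values lay above all 3 normoxia values, as was so in either direction for 14.6% of all probes compared. The rise was 0.73 ± 0.23 on the log2 scale (a ratio of 1.66, unadjusted p = 0.007101 and adjusted p = 0.1791 in limma). It kept an unadjusted p of at most 0.0369 with each array left out, and was 0.56 within slide 2 (unadjusted p = 0.2193). With ketamine the hypoxia effect was 0.30 ± 0.21 (unadjusted p = 0.1887), the interaction was -0.44 ± 0.32 (unadjusted p = 0.1878), and the mean over both arms was 0.52 ± 0.16 (unadjusted p = 0.005887). The leukocyte marker sum was also higher on every hypoxia array than on every normoxia array; its part in the difference of ATF4 or of the other genes called between hypoxia and normoxia was not tested.

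DDIT3, or CHOP, a transcription factor downstream of ATF4 that is linked to cell death under prolonged stress, read far below the 75th percentile. Its probe A_70_P049676 read -3.94, -4.14, -4.03 and -4.24 in hypoxia ketamine and -3.26, -4.07, -3.99 and -3.82 in hypoxia vehicle cortices, against -3.84, -4.27, -4.37 and -4.41 in normoxia ketamine and -4.29, -4.17 and -4.27 in normoxia vehicle cortices. Hypoxia vehicle replicate 1 stood highest. The rise with vehicle was 0.46 ± 0.19 (unadjusted p = 0.0282 in limma); it was 0.29 without hypoxia vehicle replicate 1 (unadjusted p = 0.08735), 0.44 without normoxia vehicle replicate 1 (unadjusted p = 0.0711), 0.45 without normoxia vehicle replicate 3 (unadjusted p = 0.06575), 0.26 in the deposited table (unadjusted p = 0.1127) and 0.12 with normexp background correction (unadjusted p = 0.6228). The other DDIT3 probe, A_70_P049677, did not pass (0.43 ± 0.21, unadjusted p = 0.06063).

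BAG6, which guards newly made proteins on their way to membranes, was higher by 0.31 ± 0.11 after hypoxia with vehicle on probe A_70_P014736 (unadjusted p = 0.01401 in limma; 0.23 and unadjusted p = 0.07711 without normoxia vehicle replicate 2), and its other probe did not pass (0.22 ± 0.11, unadjusted p = 0.05929). ERP29, a folding helper in the endoplasmic reticulum, was lower by 0.35 on the log2 scale after hypoxia with ketamine (-0.35 ± 0.13, unadjusted p = 0.01938 in limma), with values of 2.80, 2.59, 2.61 and 2.78 in hypoxia ketamine against 3.12, 3.15, 3.07 and 2.82 in normoxia ketamine cortices, without overlap, as for 6.49% of all probes compared. That call was lost without normoxia ketamine replicate 2 (-0.31, unadjusted p = 0.05008) and within either slide alone (-0.45, unadjusted p = 0.05632 on slide 1 and -0.24, unadjusted p = 0.2012 on slide 2), and it was -0.22 (unadjusted p = 0.2526) without the 3 arrays on which the placental gene PAG3 was above background, namely hypoxia ketamine replicate 2 and replicates 1 and 2 of normoxia ketamine. TXNIP, which binds thioredoxin and limits its reducing power, was lower with ketamine than with vehicle in normoxia on A_70_P001431 (-0.39 ± 0.17, unadjusted p = 0.0369 in limma), with values of 3.05, 3.33, 3.21 and 2.98 in normoxia ketamine against 3.42, 3.75 and 3.43 in normoxia vehicle cortices. These did not overlap, nor did 6.93% of all probes compared. Its call was lost without normoxia vehicle replicate 2 (-0.28, unadjusted p = 0.1588), normoxia ketamine replicate 1 (-0.36, unadjusted p = 0.07656) or normoxia ketamine replicate 4 (-0.33, unadjusted p = 0.08883), and the other TXNIP probe gave -0.33 ± 0.17 (unadjusted p = 0.08171). The probes of DDIT3, BAG6 and TXNIP did not pass within either slide taken alone, where each fit has only 8 or 7 arrays. The changes there, on slides 1 and 2 in that order, were 0.29 and 0.65 for DDIT3, 0.29 and 0.32 for BAG6, and -0.39 and -0.33 for TXNIP, so those of BAG6 and TXNIP stayed about as large as over all arrays.

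Among network genes that passed in no comparison were ATF6, the membrane-bound sensor of the unfolded protein response, with 0.03 ± 0.30 for hypoxia against normoxia with vehicle (unadjusted p = 0.9197), and CRYAB, a small heat shock protein, with 0.30 ± 0.26 (unadjusted p = 0.2688). The peptidyl-prolyl isomerase PPIB gave -0.19 ± 0.12 and -0.13 ± 0.10 on its probes, and the chaperonin subunit TCP1 gave 0.07 ± 0.12 and 0.09 ± 0.11, in the same comparison. The ATF6 probe was dim, from -6.37 in hypoxia vehicle replicate 2 to -4.8 in hypoxia vehicle replicate 4.

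**Figure D4:**
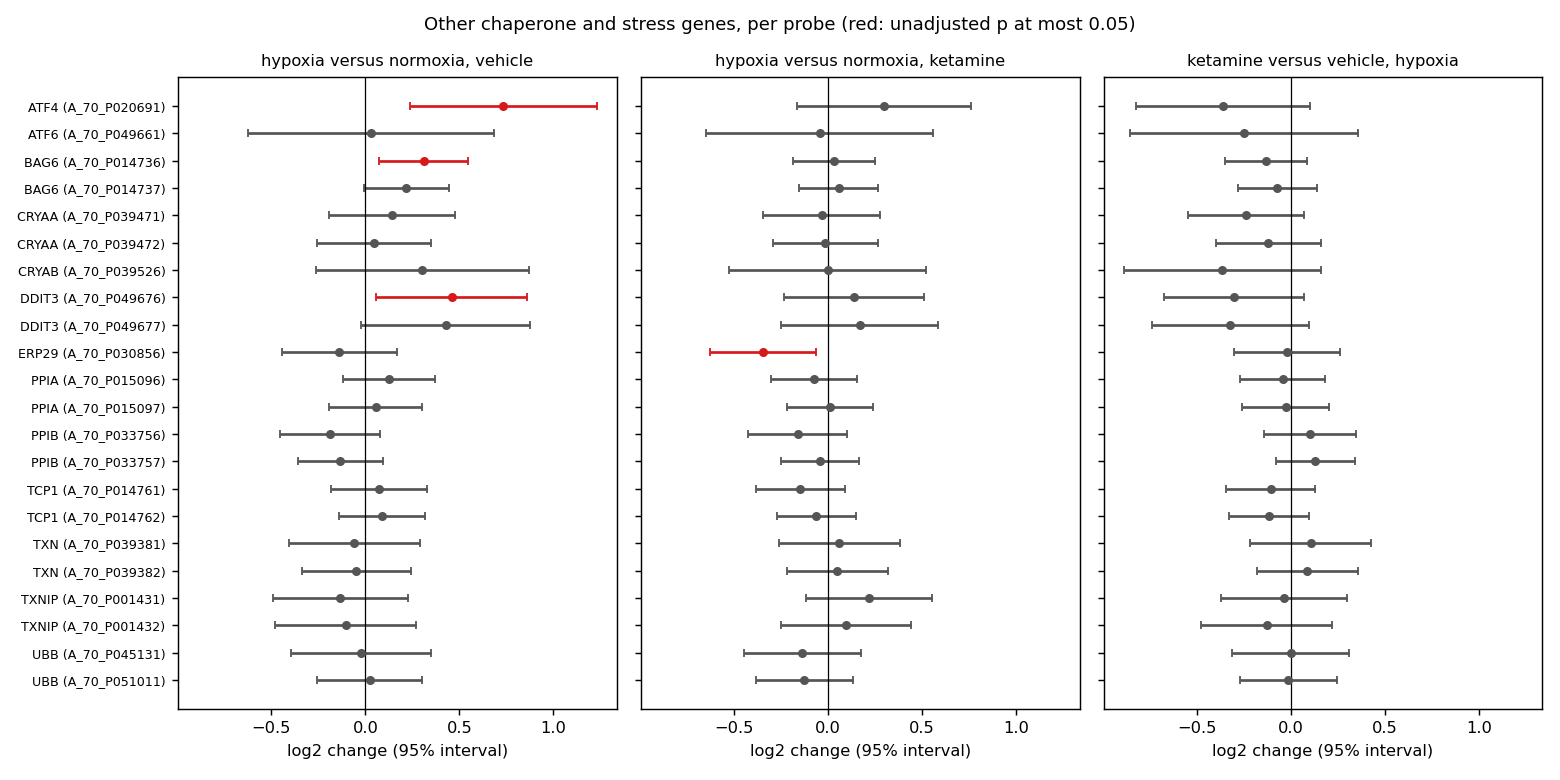
Each row is 1 probe of the 13 network genes on the array and each panel 1 comparison, with the log2 change on the horizontal axis. Points are limma estimates, bars are 95% intervals, and red marks an unadjusted p of at most 0.05. ATF4, BAG6 and DDIT3 each have a red probe for hypoxia with vehicle, ERP29 is red for hypoxia with ketamine, and no probe is red for ketamine after hypoxia.

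The named genes whose pattern over the 15 arrays was most like that of HSP70.1 were taken from 665 candidates by Pearson's r with A_70_P031192, as a description with no test. They were DKC1 (r = 0.824, rho = 0.761), the pseudouridine synthase of ribosomal and telomerase RNA, JUND (r = 0.804, rho = 0.732), a subunit of the AP-1 transcription factor, FGF7 (r = 0.786, rho = 0.775), a growth factor for epithelia, TRAF3 (r = 0.785, rho = 0.793), a signalling adaptor, and FGF18 (r = 0.774, rho = 0.661), which was above background on 12 arrays. With group means taken off, the nearest were FGF18 (0.869), DKC1 (0.838), MYC (0.764), FGF7 (0.724) and ME1 (0.718). All these values share the same 15 arrays and their labelling.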

How the data were processed

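Total RNA (RIN 7.7 to 9.1) was labelled with Cy3 and hybridised to a 1-colour Agilent ovine array. Per the file headers, the authors' scanner files hold intensity, with background subtracted and spatial trends removed by Agilent Feature Extraction 10.1.1.1, without scaling from array to array. Also deposited were normalized log2 values of 11705 probes in a table. The submitters' processing notes name limma; for that table its version and filter were not given in the sources used here. In 12 of its 15 columns another array of the same group correlated best, so that table served only as an alternative, and replicate numbers follow the scanner files.

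Here log2(processed signal) minus the array's 75th percentile was fitted with limma 3.58.1 in R 4.3.3 on 4 groups, for 12927 probes well above background on at least 3 arrays, with two-sided unadjusted p at a threshold of 0.05 and Benjamini-Hochberg adjustment over all tested probes. The script was tested on simulated data. Named were all member probes, network genes called in any comparison with a few uncalled ones for contrast (ATF6, CRYAB, PPIB, TCP1, chosen after their values were seen), and the 5 genes most like HSP70.1. Members and lists were chosen with earlier results of these data known, and older names (BAT3 for BAG6, VDUP1 for TXNIP, cyclophilin B for PPIB) were matched after the array names were read. Correlations used 100000 permutations. Fetuses were not paired by replicate number in the main fit. Over 21 pairs of same-numbered arrays, the correlation of deviations from the group mean ran from -0.29 to 0.37. With 3 or 4 arrays per group, these correlations cannot settle whether the numbers pair the fetuses. Alternatives were other background corrections, scalings, filters, slide and replicate terms, array weights, the deposited table and leaving out arrays. Array number limits the precision. Genome positions, promoters and proteins were not used here.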

Additional observations from a re-analysis of the deposited data

Results flagged for a closer look

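The hypoxia effect on HSP70.1 probe A_70_P031191 differed between the drug arms by the interaction test: it was -0.30 with ketamine and 0.44 with vehicle, a difference of -0.74 ± 0.33 (SE, unadjusted p = 0.04466 and adjusted p = 0.9918 in limma). The other HSP70.1 probe, which shares 58 of its 60 bases, gave -0.65 (unadjusted p = 0.06249). Hypoxia vehicle replicate 2, at 1.88, was the one cortex of its group that did not lie above the hypoxia ketamine values. Without it the difference was -0.9989 (unadjusted p = 0.0007328 and adjusted p = 0.8796 in limma). The call was lost with any of 11 of the 15 arrays left out, with slide as a block (-0.716, unadjusted p = 0.05575), with quantile scaling (-0.668, unadjusted p = 0.06627) and in the deposited table (-0.648, unadjusted p = 0.07429). No array of any member probe stood out of its group by Dixon's ratio, over 15 groups of 4 arrays tested.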

How the results depend on the processing

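In all, 450 changes of member probes were recomputed with 1 array left out, of which 409 kept direction and side of the threshold, 21 changed sign, 11 lost and 9 gained a call; under the other settings 460 were recomputed, of which 420 kept both, 21 changed sign, 12 lost and 7 gained a call. None that changed sign had an unadjusted p of at most 0.05 (0 values). The cause of these shifts was not tested. Many of the values that kept both could not have changed sign. Leaving out an array outside the groups compared moves only p, not the change. The HSP70.1 A_70_P031191 change for ketamine against vehicle after hypoxia was -0.7276 in the main fit and without normoxia vehicle replicate 1. Other filters, array weights and the exact permutation test, counted among the other settings, also gave -0.7276. The counts that kept both therefore overstate how stable the changes were.

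The count of member probes called was as follows where it moved. The share of all tested probes called at the same setting is given in percent beside each count. For hypoxia against normoxia with vehicle (0, 16%) it was 1 within slide 2 (HSP70.1 A_70_P031191, 0.76, 5.15%). With arrays left out it was 0 to 3, with 3 reached without hypoxia vehicle replicate 2 (18.9%). With ketamine (0, 8.7%) it was 1 with only the groups compared (10.6%). It was 1 without the 2 arrays of lowest correlation (HSP90AA1, -0.37, unadjusted p = 0.03771 in limma, 10.7%). With arrays left out it was 0 to 1, with 1 reached without hypoxia vehicle replicate 2 (9.41%). For ketamine against vehicle after hypoxia (2, 6.03%) it was 0 within slide 1 (2.12%) and 0 without the 2 arrays of lowest correlation (9.53%). With arrays left out it was 2 to 4, with 4 reached without hypoxia vehicle replicate 2 (11.9%). In normoxia it was 0 throughout (2.71% in the main fit). For the mean over both arms (0, 20.3%) it was 1 without the 2 arrays of lowest correlation (17.5%). With arrays left out it was 0 to 1, with 1 reached without hypoxia vehicle replicate 4 (19%). For the interaction (1, 3.09%) it was 0 with quantile scaling (3.16%), slide as a block (3.24%), within slide 1 (1.72%) and the deposited table (3%). It was also 0 without the 3 arrays on which placental PAG3 was above background (5.48%) and without the 2 arrays of lowest correlation (7.26%). It was 2 within slide 2 (3.32%), with array weights (3.58%) and with the replicate block (3.3%), which changed no other member call. With arrays left out it was 0 to 2, with 2 reached without hypoxia vehicle replicate 2 (5.11%) and without normoxia ketamine replicate 2 (2.9%).

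These values changed sign. HSPA5 (A_70_P016526 first, then A_70_P016527), hypoxia with ketamine, was 0.0287 and 0.1159 within slide 1. Ketamine in normoxia gave 0.0562 for HSP90AA1 without the placental arrays, -0.0102 for A_70_P016526 within slide 2, and, for HSP70.1 A_70_P031191, -0.0312 with quantile scaling, -0.0042 with the percentile over always-detected probes, -0.0115 with slide as a block, -0.1507 within slide 1, -0.064 with the replicate block and -0.0302 in the deposited table. HSP70.1 A_70_P031192 there was 0.0983 within slide 2 and 0.0583 without the placental arrays. In the mean over both arms, A_70_P016526 was -0.0934 within slide 2, -0.0154 without the placental arrays and -0.1159 without the 2 arrays of lowest correlation, A_70_P016527 was -0.0904, -0.0011 and -0.097 under the same settings, HSP70.1 A_70_P031191 was -0.0203 within slide 1 and A_70_P031192 was 0.0506 within slide 2. The interaction for HSP90AA1 was 0.0252 within slide 1.

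With arrays left out, values crossed 0 in these ranges: -0.346 to 0.0126 for A_70_P016527 in hypoxia with ketamine; for ketamine in normoxia, -0.2076 to 0.0158 for HSP90AA1, -0.0155 to 0.2029 for A_70_P016526, -0.0031 to 0.2153 for A_70_P016527, -0.0579 to 0.1271 for A_70_P031191 and -0.1091 to 0.0752 for A_70_P031192. In the mean over both arms they were -0.0204 to 0.2303, -0.0025 to 0.2655 and -0.0736 to 0.1204 for A_70_P016526, A_70_P016527 and A_70_P031192, and the HSP90AA1 interaction ran from -0.2581 to 0.0138.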

Other observations

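Array records described as a DnaJ homolog or as mt-GrpE, but named otherwise, were looked up after the annotation was read. Other chaperones known only by their description may be missing from this lookup. TC12474, described by likeness to bovine DnaJ homolog subfamily A member 1, a partner that hands clients to HSP70, read 3.38, 3.91, 3.13 and 3.45 in hypoxia ketamine and 3.63, 3.34, 3.72 and 5.14 in hypoxia vehicle cortices, against 3.47, 3.38, 3.29 and 3.63 in normoxia ketamine and 3.66, 3.16 and 3.50 in normoxia vehicle cortices. Hypoxia vehicle replicate 4, the array with the lowest median correlation to the others, was the one high value, and no comparison passed: hypoxia against normoxia with vehicle gave 0.52 ± 0.34 (unadjusted p = 0.1453 in limma) and ketamine against vehicle after hypoxia -0.49 ± 0.31 (unadjusted p = 0.1385). LOC100037672, described as a mitochondrial GrpE chaperone, which exchanges the nucleotide of mitochondrial HSP70, gave 0.16 ± 0.15 (unadjusted p = 0.3036) and 0.31 ± 0.15 (unadjusted p = 0.05442) on its probes for hypoxia against normoxia with vehicle.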
